A study of Homo sapiens with 8 samples.

Results

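Pairs of read clusters lying close together at 3′ splice sites were examined in a U2 snRNP immunoprecipitation sequencing study of K562 cells, an erythroleukemia line. A tandem pair was defined as 2 distinct clusters, each carrying the authors' 3′ splice site mark, whose starts lay at most 100 nt apart on the same chromosome. Over the 4 deposited tables this gave 756 pairs made of 1500 clusters, which was 2.08% of the 71951 marked 3′ splice site clusters and part of 122826 clusters in all. The rule used positions and marks and not which table listed a cluster, except that each partner had to be listed in at least 1 table. The mark places a cluster at a 3′ splice site. The sources used here do not say whether the partners of a pair serve separate 3′ splice sites or the same one.

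The cells expressed SF3B1 with a 3xFlag tag, either with the K700E substitution or with the wild-type sequence. All were grown alike, and U2 complexes were purified from nuclear extracts prepared with nucleases. The cell line fields give K562, while a protocol text names HEK293 RNA. Control libraries made without antibody or without purification are not analysed here. With the anti-SF3A2 antibody there were 3 K700E libraries and 3 wild-type libraries, and with the anti-Flag antibody 1 K700E and 1 wild-type library. Each of these 4 combinations was deposited as 1 table of clusters with up to 3 ranked branch points on hg19, so the values below have no replicate error and no p-value. The SF3A2 antibody takes U2 complexes with tagged or untagged SF3B1, whereas the Flag antibody takes complexes with the tagged protein. Ranges in brackets give 95% intervals, by Wilson's method for shares of clusters or pairs and log-normal for odds ratios. They cover counting error only and treat neighbouring clusters as independent. The tables hold no read numbers, so the depth behind a listing is unknown.

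The U2 snRNP selects the intron branch site by pairing its RNA with the sequence around the branch point, the adenosine that attacks the 5′ splice site. SF3A2 and SF3B1 are protein subunits of the U2 snRNP, and SF3B1 encloses the duplex of U2 RNA and branch site. The branch point usually lies a short way before its 3′ splice site, and the AG used for splicing is normally found downstream of it. Cells with SF3B1 K700E, a substitution found in myeloid neoplasms, are known for using cryptic 3′ splice sites, many of them a short way upstream of the regular one, together with other branch points.

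Tandem pairs formed a group of their own by spacing. The starts of partners lay 6 to 99 nt apart, with a median of 57 nt and quartiles of 45 and 71 nt. The number of pairs rose to 172 at 41 to 50 nt and declined to 28 at 91 to 100 nt. There were 19 pairs in the 10 nt just beyond the limit, after which the number climbed to 313 at 121 to 150 nt and 1234 at 151 to 200 nt. Close to the limit itself there were 12 pairs at 96 to 100 nt and 6 in the next 5 nt. The limit of 100 nt thus fell at the minimum between closely spaced and wider pairs.

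**Figure D1:**
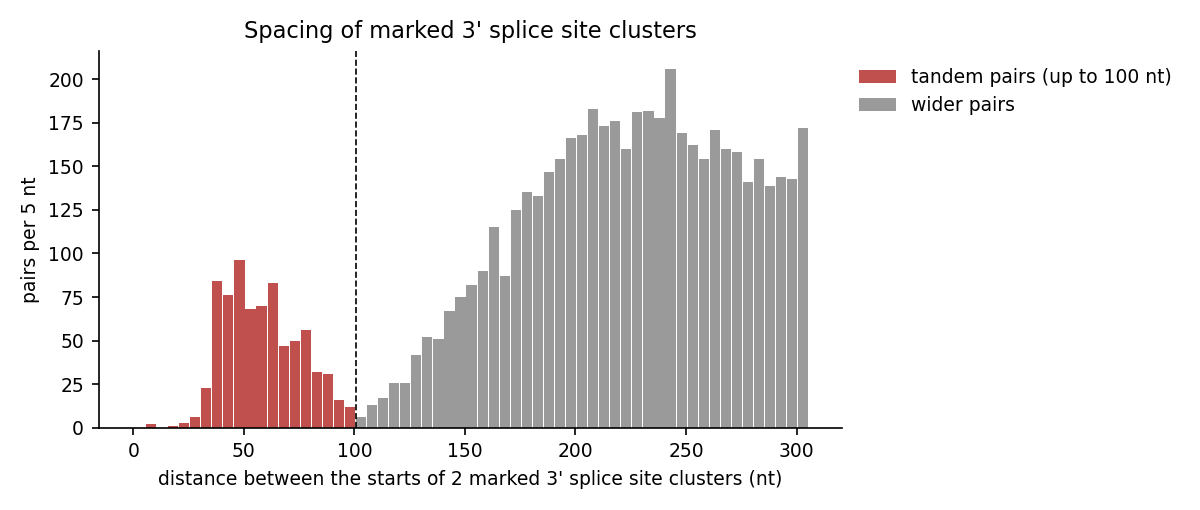
Number of pairs of marked 3′ splice site clusters in steps of 5 nt of the distance between their starts, over all 4 tables. Tandem pairs are red, wider pairs grey, and the dashed line marks 100 nt, where the number of pairs is lowest between a group of short spacing and the broad rise beyond it.

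Of the 756 pairs, 750 had partners that did not overlap, with a median of 20.5 nt between the end of the first cluster and the start of the second. The other 6 pairs overlapped. Partners were as long as other marked clusters, with a median of 35 nt against 34 nt. Clusters under 25 nt were more frequent among them, at 2.33% against 0.109%. The pairs lay on 23 chromosomes. Tandem clusters made up 3.27% of the marked clusters of chromosome 19 and 3.24% of those of chromosome 20, against 0.789% on chromosome 4 and 0.863% on chromosome 13.

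The tables carry no strand, so direction was taken from the place of the branch points. In tandem clusters the branch point ranked first had a median distance of 12 nt to the nearer cluster end, in downstream and in upstream partners, in clusters with a median length of 35 nt. The authors' 5′ splice site mark on other clusters gave this end a meaning. An internal exon has its 3′ splice site at its upstream edge and its 5′ splice site at its downstream edge, so the 5′ splice site cluster of the same exon lies downstream. Around the 70451 marked clusters outside tandem pairs, 3973 of 4573 offsets of 5′ splice site clusters at 70 to 300 nt fell on the side of the nearer end, or 86.9% (85.9 to 87.8%). An offset was counted for each marked cluster and each 5′ splice site cluster near it, so the same 5′ splice site cluster can count repeatedly. The number of offsets was highest at 140 to 160 nt, with 620 on that side and 51 as far on the other. Closer than this window the lean was the opposite, with 25 offsets at 40 to 60 nt on the side of the nearer end and 132 as far on the other. Within the window, the share was 88.0% where the nearer end was the cluster end in file coordinates and 85.8% where it was the cluster start. The nearer end was therefore taken as the downstream one. Direction by pair rests on this majority and not on an annotated strand.

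**Figure D2:**
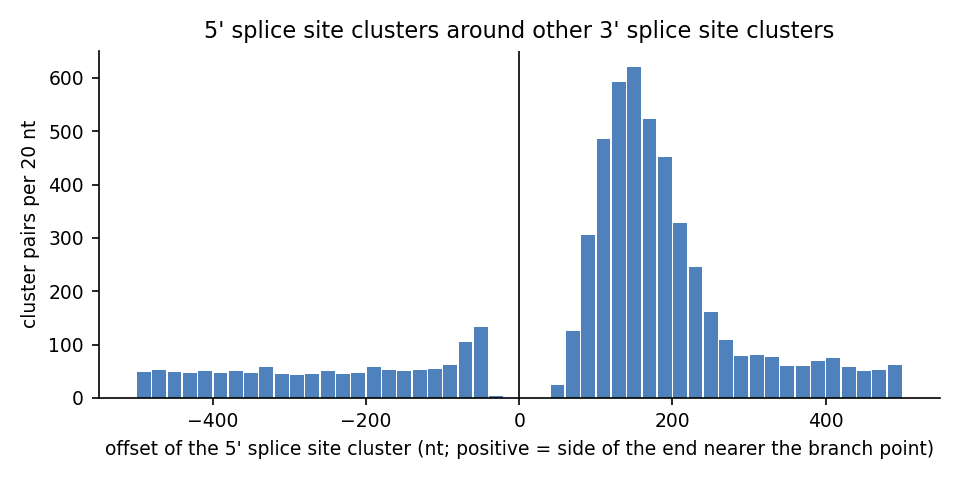
Offsets of 5′ splice site clusters from marked 3′ splice site clusters outside tandem pairs, in steps of 20 nt, with positive values on the side of the cluster end nearer the top-ranked branch point. The peak at 140 to 160 nt stands on the positive side, which was taken as downstream.

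Both partners pointed the same way in 673 of 756 pairs, or 89.0% (86.6 to 91.1%). In these, the partners are called downstream and upstream below, and their top-ranked branch points lay a median of 56 nt apart, with quartiles of 45.3 and 69.7 nt. Partners pointed opposite ways in 78 pairs, and in 5 a partner had no nearer end. Around tandem clusters themselves the lean was weaker than around other marked clusters. Of 246 offsets at 70 to 300 nt, 174 fell on the side of the nearer end, or 70.7% (64.8 to 76.1%). A 5′ splice site cluster can be counted here from both partners of a pair, and the interval treats its offsets as independent. Among tandem pairs with a 5′ splice site cluster on 1 side alone, that side was the downstream one in 73 of 95 pairs, or 76.8% (67.4 to 84.2%).

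The first comparison asked which partner each table listed. The downstream partner was listed more often than the upstream partner in all 4 tables, and where a table listed 1 partner of a pair, it was the downstream one about 3 times in 4. The SF3A2 K700E table listed 652 downstream and 619 upstream partners of the 673 pairs. The SF3A2 wild-type table listed 506 downstream and 343 upstream partners. The Flag K700E table listed 498 downstream and 309 upstream partners, and the Flag wild-type table listed 446 downstream and 250 upstream partners. Among pairs with 1 partner listed, the downstream partner was the listed one in 53 of 73 pairs in the SF3A2 K700E table, or 72.6% (61.4 to 81.5%), and in 239 of 315 in the SF3A2 wild-type table, or 75.9% (70.9 to 80.3%). It was the listed one in 279 of 369 pairs in the Flag K700E table, or 75.6% (71.0 to 79.7%), and in 279 of 362 in the Flag wild-type table, or 77.1% (72.5 to 81.1%). The intervals of these 4 shares overlapped over all tandem pairs. Among pairs up to 50 nt apart, the interval of the SF3A2 K700E table lay below the others. Partners that entered the set through that table alone are listed in it by construction. Up to 50 nt, its downstream share was 31.6% of 19 pairs, with an interval (15.4 to 54.0%) that includes 50%. The share was 77.4% (68.9 to 84.1%) of 115 in the SF3A2 wild-type table. It was 70.5% (62.5 to 77.5%) of 139 pairs in the Flag K700E table, against 74.1% (66.1 to 80.7%) of 135 in the Flag wild-type table.

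The tables differed far more in how often both partners appeared. Among pairs with at least 1 partner listed, both were present in 668 of 755 pairs of the SF3A2 K700E table, or 88.5% (86.0 to 90.6%), and in 298 of 654 of the SF3A2 wild-type table, or 45.6% (41.8 to 49.4%). Both were present in 233 of 662 pairs of the Flag K700E table, or 35.2% (31.7 to 38.9%), and in 183 of 594 of the Flag wild-type table, or 30.8% (27.2 to 34.6%). This order of the 4 tables was also their order by number of marked clusters, which was 70777, 52502, 49065 and 47026, and the part of table size in it was not tested. The selection also raises the share of the SF3A2 K700E table, since 366 of its 1411 tandem clusters entered the set through that table alone. With both partners required in at least 2 tables (356 pairs), the shares were 96.9% in SF3A2 K700E, 71.9% in SF3A2 wild type, 65.1% in Flag K700E and 56.4% in Flag wild type.

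**Figure D3:**
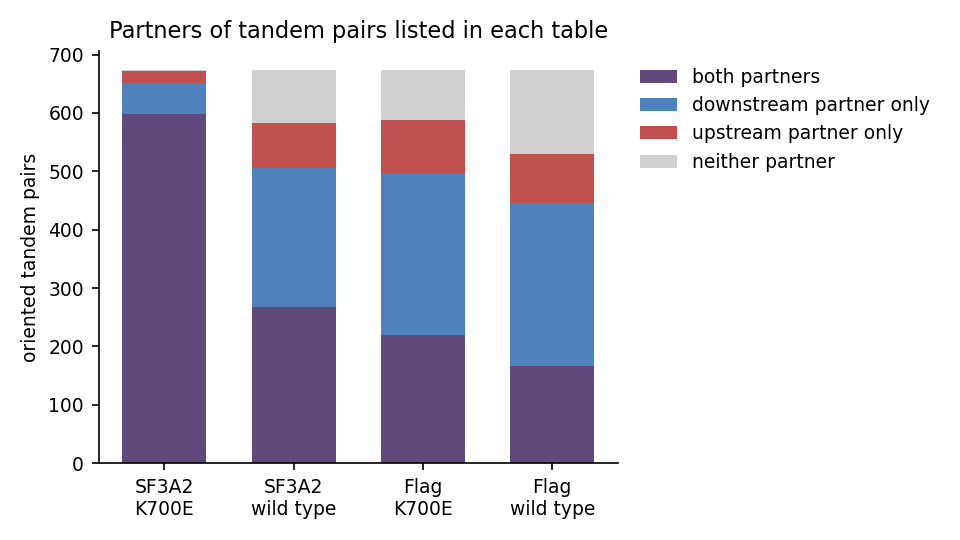
Tandem pairs with both partners pointing the same way (673), by the partners each table listed. The segment for the downstream partner alone (53, 239, 279 and 279 pairs from left to right) exceeds that for the upstream partner alone (20, 76, 90 and 83) in each table, while the segment for both partners shrinks from left to right.

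Among the selected pairs, listing of the partners was compared within each table. The odds of listing the downstream partner with the upstream partner present, against the odds without it, were 1.34 (0.942 to 1.90) in the SF3A2 wild-type table. They were 0.741 (0.525 to 1.05) in the Flag K700E table and 1.04 (0.746 to 1.45) in the Flag wild-type table. Each interval includes 1. The SF3A2 K700E table left out both partners of 1 pair, and its interval ran from 0.0744 to 4.29. Sites with 1 partner or none listed in any table are not in the set, so these odds do not bear on whether partners exclude each other.

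Counted over the tables, the downstream partner was listed in a mean of 3.12 tables and the upstream partner in 2.26. The downstream partner was in more tables in 375 pairs, the upstream partner in 127, and the numbers were equal in 171. The downstream partner was in more tables in the majority of unequal pairs on 21 of 23 chromosomes, the exceptions being chromosome 4 (2 against 3 pairs) and chromosome 21 (1 against 2). The most frequent unequal arrangement had the downstream partner in all 4 tables and the upstream partner in the SF3A2 K700E table alone, with 134 pairs, whereas the mirror image occurred in 25 pairs. In both arrangements the less listed partner entered the set through the SF3A2 K700E table alone, and 15.8% of other marked clusters were listed that way. Both partners were in all 4 tables in 98 pairs.

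This lean toward the downstream partner was found at tandem spacing and not between wider pairs. Where 1 partner alone was in all 4 tables, it was the downstream partner in 291 of 380 tandem pairs, or 76.6% (72.1 to 80.6%). Among pairs 121 to 300 nt apart that pointed the same way, a range chosen after the spacing had been seen, it was the downstream cluster in 839 of 1954, or 42.9% (40.8 to 45.1%). The odds ratio between the spacings was 4.35 (3.37 to 5.60). The upstream partner accounted for most of this difference. It was in all 4 tables in 27.8% of tandem pairs (24.5 to 31.3%) against 60.9% of wider pairs (59.4 to 62.3%). The downstream partner was in all 4 tables in 57.8% (54.0 to 61.5%) against 54.8% (53.4 to 56.3%), with intervals that overlapped.

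**Figure D4:**
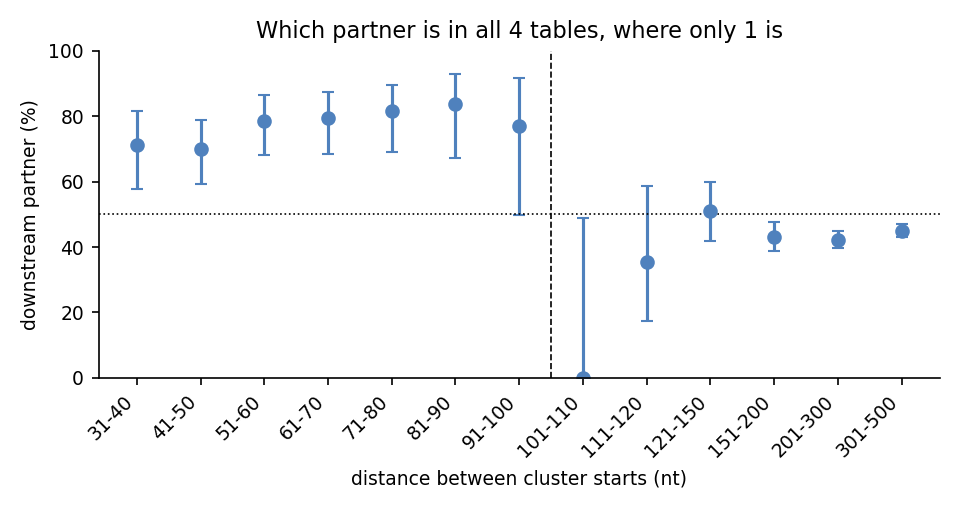
Share of pairs in which the downstream partner was the one in all 4 tables, among pairs pointing the same way with 1 such partner, by distance between cluster starts. Bars are 95% Wilson intervals, the dotted line marks 50% and the dashed line 100 nt, and shares run from 69.9% to 83.9% left of the dashed line and from 0% of 4 pairs to 50.9% right of it.

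Within tandem spacing, the lean was present from 31 to 90 nt in each step of 10 nt, with shares of 69.9% at 41 to 50 nt and 83.9% (67.4 to 92.9%) at 81 to 90 nt. Their intervals overlapped. The SF3A2 K700E table departed from this at the shortest distances. At 31 to 40 nt it listed 91.5% of downstream and 97.9% of upstream partners, and at 61 to 70 nt 99.1% of downstream and 85.3% of upstream partners. Up to 50 nt its lone partner was the downstream one in 6 of 19 pairs, or 31.6% (15.4 to 54.0%), an interval that includes 50%. The Flag wild-type table listed 63.8% of downstream and 40.4% of upstream partners at 31 to 40 nt, and 69.1% and 27.3% at 81 to 90 nt.

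Set against other marked clusters, tandem clusters were less often shared by all tables. They were in all 4 tables in 640 of 1500 cases, or 42.7% (40.2 to 45.2%), against 54.2% (53.8 to 54.6%) of the 70451 others and a background of 54% over all marked clusters. The odds ratio was 0.629 (0.567 to 0.698). By side it was 57.8% of downstream and 27.8% of upstream partners. Clusters of the SF3A2 K700E table alone made up 24.4% of tandem clusters (22.3 to 26.6%) against 15.8% of others, with 15.9% over all marked clusters, and they were 13.4% of downstream and 34.8% of upstream partners. They entered the set through that table alone, so it lists them by construction.

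Listing by the SF3A2 wild-type table alone was also more frequent among tandem clusters, although the class is small. There were 58 among 1500 tandem clusters, or 3.87% (3.00 to 4.97%), against 0.704% of other marked clusters (0.645 to 0.769%) and a background of 0.77%. The odds ratio was 5.67 (4.30 to 7.48). All 58 entered the set through that table alone, so it lists them by construction. The class is empty by definition where both partners must be in at least 2 tables. Among pairs up to 50 nt apart it held 2.24% of tandem clusters. In pairs pointing the same way, 11 of the 58 were downstream and 36 upstream partners, and for 29 of the 36 the downstream partner was in all 4 tables. These upstream partners lay a median of 67 nt from their downstream partner, with quartiles of 60.5 and 81.25 nt. For the 234 upstream partners of the SF3A2 K700E table alone the median was 54 nt, with quartiles of 45 and 70 nt.

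The genotype comparison asked whether K700E cells listed other partners than wild-type cells. In both immunoprecipitations more tandem clusters were listed for K700E alone than for wild type alone. With SF3A2, 535 of the 1482 tandem clusters listed for either genotype were listed for K700E and not for wild type, or 36.1% (33.7 to 38.6%), against 26.6% of all marked clusters. For wild type and not for K700E there were 71, or 4.79% (3.82 to 6.0%), against 1.11% of all marked clusters. Of the 535, 366 entered the set through the SF3A2 K700E table alone. Of the 71, 58 entered it through the SF3A2 wild-type table alone. Those tables list them by construction, and the part of this in both shares was not tested. With Flag, 214 of 986 were listed for K700E and not for wild type, or 21.7% (19.2 to 24.4%), against 15.3% of all marked clusters. For wild type and not for K700E there were 99, or 10.0% (8.32 to 12.1%), against 11.7% of all marked clusters.

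The K700E share of clusters listed for 1 genotype differed from that of other marked clusters, in opposite directions in the 2 immunoprecipitations. With SF3A2 it was 88.3% in tandem clusters (85.5 to 90.6%) against 96.2% in others, an odds ratio of 0.294 (0.227 to 0.381). With Flag it was 68.4% (63.0 to 73.3%) against 56.5% (55.7 to 57.3%), an odds ratio of 1.66 (1.31 to 2.11). The SF3A2 values include 366 clusters that entered the set through the SF3A2 K700E table alone. They also include 58 that entered through the SF3A2 wild-type table alone. The Flag tables differed little in size over all marked clusters, at 49065 and 47026. K700E cells with Flag listed 59.1% and wild type 51.5% of tandem clusters, while of other marked clusters K700E listed 68.4% and wild type 65.7%.

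Both partners were listed more often in K700E, and with SF3A2 the gap was wider for the upstream partner. With SF3A2, upstream partners were listed in 92.0% (89.7 to 93.8%) of pairs for K700E and 51.0% (47.2 to 54.7%) for wild type, and downstream partners in 96.9% (95.3 to 97.95%) for K700E and 75.2% (71.8 to 78.3%) for wild type. This made 94.9 upstream partners per 100 downstream partners in K700E and 67.8 in wild type. With Flag there were 62.0 per 100 in K700E and 56.1 in wild type. The selection raises the SF3A2 K700E values, and more so for upstream partners. Through the SF3A2 K700E table alone, 234 upstream and 90 downstream partners entered the set, so that table lists them by construction. How much of the gap this makes was not tested. With Flag, 96 downstream partners were listed for K700E alone and 44 for wild type alone, and 104 upstream partners for K700E alone and 45 for wild type alone. The K700E shares were 68.6% (60.5 to 75.7%) for downstream and 69.8% (62.0 to 76.6%) for upstream partners, with an odds ratio of 0.944 (0.573 to 1.56). With SF3A2 the numbers were 162 and 16 for downstream partners and 319 and 43 for upstream partners, with an odds ratio of 1.36 (0.746 to 2.50). On this measure, K700E-only against wild-type-only listing, no difference between the sides was detectable, and the intervals allow the odds of K700E listing in downstream partners to be 0.573 to 1.56 times those in upstream partners with Flag, and 0.746 to 2.50 times with SF3A2.

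**Figure D5:**
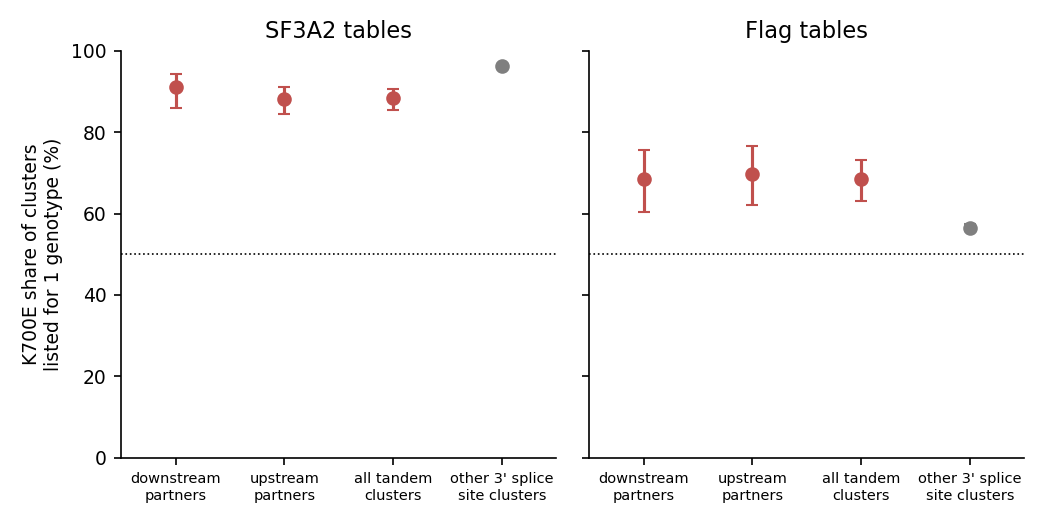
K700E share of clusters listed for 1 genotype, with 95% Wilson intervals over clusters, for downstream and upstream partners, all tandem clusters and other marked clusters. Downstream and upstream partners overlap in both panels, while all tandem clusters (88.3% and 68.4%) lie below other marked clusters (96.2%) in SF3A2 and above them (56.5%) in Flag.

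A change of partner between genotypes was seen in few pairs, and an added partner in more. With Flag, 476 of 756 pairs had the same partners listed for both genotypes, or 63.0% (59.5 to 66.3%). In 83 pairs K700E had both partners and wild type 1, and the reverse held in 57. In 298 pairs each table listed 1 partner, and these were different partners in 6, or 2.01% (0.926 to 4.32%). With SF3A2, 250 pairs had the same partners for both genotypes. The K700E table had both partners where wild type had 1 in 333 pairs, against 59 pairs the other way. The 333 include 134 pairs in which the upstream partner, and 25 in which the downstream partner, entered the set through the SF3A2 K700E table alone. In these the other partner was in all 4 tables and both pointed the same way. Further pairs of the 333 hold a partner of that table alone beside a less widely listed partner, or point opposite ways. The number of those was not counted. Partners were exchanged in 11 of 22 pairs with 1 partner in each table, or 50% (30.7 to 69.3%). The SF3A2 K700E table listed both partners of most pairs, which leaves few pairs for that last comparison.

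Exchanges between immunoprecipitations were also few by number, though the pairs open to an exchange differed widely between comparisons. Between SF3A2 and Flag, partners were exchanged in 6 of 63 pairs with 1 partner in each table in K700E, or 9.52% (4.44 to 19.3%). In wild type they were exchanged in 8 of 249, or 3.21% (1.64 to 6.21%). SF3A2 had both partners where Flag had 1 in 365 pairs in K700E, against 12 the other way, and in 142 pairs in wild type, against 42 the other way. By direction, the exchanges with SF3A2 had the downstream partner in K700E and the upstream partner in wild type in 7 pairs and the reverse in 3. With Flag these numbers were 1 and 5.

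In 1 pair both K700E tables listed 1 partner and both wild-type tables the other. It lies on chromosome 1, where both K700E tables listed the upstream cluster at 155287657 to 155287701, its branch point of first rank being 155287691. Both wild-type tables listed the downstream cluster at 155287709 to 155287744, where it was 155287731. The same arrangement between immunoprecipitations, or with the tables crossed, occurred in 0 of the 756 pairs. Between immunoprecipitations it could not occur, as 0 tandem clusters were in both Flag tables alone. Crossed, it needs a cluster in the SF3A2 wild-type and Flag K700E tables alone, of which there were 4. By genotype it needs a cluster in both wild-type tables alone, of which there were 7. The counts of 0 are thus no reference for the genotype exchange.

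Pairs with a stable partner and a partner of 1 genotype were more numerous. Of 540 pairs with at least 1 partner in all 4 tables, 32 had a second partner that the K700E tables shared and wild type lacked, or 5.93% (4.23 to 8.25%). In 5 pairs, or 0.926% (0.396 to 2.15%), the second partner was shared by the wild-type tables and lacking in K700E. Among all marked clusters, 5.78% were in both K700E tables alone and 0.249% in both wild-type tables alone. Of tandem clusters, 6.93% (5.75 to 8.33%) were in the K700E class and 0.467% (0.226 to 0.960%) in the wild-type class. The odds ratio for the K700E class against other marked clusters was 1.22 (0.998 to 1.49), so tandem clusters were not shown to be richer in it.

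A second partner in both SF3A2 tables and neither Flag table was found in 49 of the 540 pairs, or 9.07% (6.93 to 11.8%), and 6.09% of all marked clusters were listed that way. Counted by cluster, tandem clusters did not stand apart in this class, at 6.0% (4.91 to 7.32%) against 6.09% of other marked clusters. The reverse, in both Flag tables alone, was found in 0 of 540 pairs, for which the upper Wilson limit is 0.706%. That class was nearly empty throughout, with 0 tandem clusters and 0.0298% of other marked clusters. A second partner in the SF3A2 K700E and Flag wild-type tables alone was found in 22 pairs, or 4.07% (2.71 to 6.09%), an interval that overlaps that of the K700E class. Of tandem clusters 2.27% were listed that way, against 2.44% of other marked clusters. The K700E-specific partner was downstream in 10 and upstream in 21 of the 31 pairs pointing the same way, or 67.7% upstream (50.1 to 81.4%). For any less widely listed partner beside a partner in all 4 tables the upstream share was 76.6%, inside that interval. That group includes the K700E-specific partners themselves. It also holds 134 upstream and 25 downstream partners of the SF3A2 K700E table alone. The side of K700E-specific partners was thus not shown to differ from that of the whole group, which is not an independent reference.

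A few pairs show the arrangement with a K700E-specific upstream partner. On chromosome 1 the downstream cluster at 2338348 to 2338381 was in all 4 tables, its top-ranked branch point being 2338358 in 3 tables and 2338361 in the SF3A2 wild-type table. The upstream cluster at 2338403 to 2338438 was in both K700E tables alone, at 2338412 in both. On chromosome 5 the downstream cluster at 886832 to 886870 had its branch point at 886846 in both Flag tables, while the SF3A2 tables had 886852 for K700E and 886849 for wild type. The K700E-specific upstream cluster at 886903 to 886935 had 886914 in both K700E tables. On chromosome 10 the partners were 36 nt apart, and the upstream cluster at 1054808 to 1054840 had 1054827 in both K700E tables. Its downstream partner at 1054844 to 1054875 kept 1054863 in all 4 tables.

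On chromosome 3 the downstream partner changed as well. The upstream cluster at 39453012 to 39453045 was in both K700E tables alone, and its branch point was 39453034. The downstream cluster at 39453096 to 39453128 was in all 4 tables, with 39453118 in both K700E tables and 39453115 in both wild-type tables. In other pairs the K700E-specific partner was the downstream one. On chromosome 2 it lay at 172823352 to 172823384 with 172823374 in both K700E tables, beside an upstream cluster at 172823311 to 172823347 listed in all 4 tables. On chromosome 12 it lay at 129597600 to 129597631 with 129597622 in both K700E tables, and its upstream partner at 129597559 to 129597594 kept 129597581 in all 4 tables.

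The 5 pairs with a wild-type-specific partner lay on chromosomes 5, 11, 12, 20 and 22. On chromosome 11 the upstream cluster at 62621141 to 62621188 had its branch point at 62621147 in both wild-type tables. The downstream cluster at 62621071 to 62621104 had 62621083 in all 4 tables. On chromosome 5 the upstream cluster at 175612430 to 175612460 had 175612440 in both wild-type tables, and the top-ranked branch point of its downstream partner was 175612371 in both K700E tables and 175612369 in both wild-type tables. On chromosomes 12 and 20 the wild-type-specific partner was the downstream one, at 56713824 to 56713857 and at 3218243 to 3218287.

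Within tandem clusters, the choice of branch point by genotype was like that of other marked clusters. Of 583 tandem clusters with 1 top-ranked branch point in every table, 29 had the same position throughout K700E and a different one throughout wild type, or 4.97% (3.49 to 7.05%), against 5.17% of other and of all such marked clusters. The split by immunoprecipitation gave 8, or 1.37% against 1.34% of other marked clusters, and the crossed split 5, or 0.858% against 1.05%. The K700E branch point was the more downstream in 22 of the 29, or 75.9% (57.9 to 87.8%), against 72.6% (70.4 to 74.6%) in other marked clusters. The shift was 1 to 4 nt in 26 of the 29 and exactly 4 nt in 8. Downstream partners held 18 of these clusters and upstream partners 11. On chromosome 1 the downstream partner at 39815096 to 39815131 had 39815118 in K700E and 39815114 in wild type. Also on chromosome 1, the upstream partner at 151027658 to 151027693 had 151027669 in K700E and 151027673 in wild type. The longest shift, 34 nt, was in the upstream partner at 31938230 to 31938296 on chromosome 6, with 31938242 in K700E and 31938276 in wild type. There the K700E position lies nearer the cluster start and the wild-type position nearer the cluster end. The mean of these positions set the direction of this cluster, so its place among the 22 is uncertain.

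Where both partners were in all 4 tables, no difference in their numbers of branch points was resolved. Over these 98 pairs the SF3A2 K700E table listed a mean of 2.78 branch points in downstream and 2.63 in upstream partners, a difference of 0.143 (-0.0324 to 0.318, normal interval over pairs). In downstream and upstream partners, SF3A2 wild type had 2.16 and 2.10, while 2.18 and 2.10 were found in Flag K700E, and 2.08 and 1.91 in Flag wild type. The mean was higher in downstream partners in all 4 tables, and the interval of each difference included 0. The distance between the top-ranked branch points of partners listed together had a median of 56 nt in the SF3A2 K700E table and 57 nt in the SF3A2 wild-type table. It was 58 nt in the Flag K700E table and 56 nt in the Flag wild-type table.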

How the data were processed

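The submitters' processing notes name STAR 2.7.6a, cutadapt and the hg19 build. The labels give an insert length of 24 to 55 nt and 11 to 14 cycles of PCR. The sources used here do not give how clusters were called, pooled over libraries and marked, or the method behind the branch points. The deposited tables give, per the file headers, cluster and branch point positions in nt and a rank, a score of 1 to 3 deposited by the authors with ties. Positions are those of the files, which do not state a 0-based or 1-based count. In SF3A2 K700E, 1 row without an identifier was left out.

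Pairs, listing and direction were computed with scipy 1.17.1, matplotlib 3.10.9, numpy 2.4.6 and pandas 2.3.3 under Python 3.11.15. A cluster counted as listed with any branch point. A cluster pointed to the end nearer to its mean top-ranked branch point over the tables. The script was tested on simulated pairs. Members and comparisons were chosen with earlier results of these data known. Named pairs were the lowest in position on each chromosome in each listing class (1 partner in all 4 tables and the other in 1 genotype, not overlapping, or exchanged partners), and the few of these that are printed were picked after their values were seen. The named branch point switches were also picked in this way. An hg19 annotation was not used here and genes are unnamed, so the K562 markers and the gene list gave no result. The design allowed for counts, but the files hold positions and ranks, so shares with intervals replaced any test. Alternatives covered spacing, overlap, length, listing and direction.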

Additional observations from a re-analysis of the deposited data

Results flagged for a closer look

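The K700E share of clusters listed for 1 genotype was set apart because tandem clusters moved in opposite directions from other marked clusters in the 2 immunoprecipitations. The difference, tandem minus other, was -7.96 percentage points with SF3A2 and 11.8 percentage points with Flag. The difference between the immunoprecipitations was not tested, since both lists hold many of the same clusters and each has 1 table per genotype. Over all marked clusters the SF3A2 tables listed 70777 for K700E and 52502 for wild type, and with Flag 49065 for K700E and 47026 for wild type were listed. The parts of table size and of clusters that entered the set through 1 table alone were not tested.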

How the results depend on the processing

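No paired analysis was possible because the replicate libraries were deposited as 1 table per genotype and immunoprecipitation, and for the same reason no library could be left out. Over 12 alternative settings and 20 quantities, 165 of 206 values stayed within the 95% interval of the reported one, 40 moved out of it and 1 crossed 50%. The settings not named below moved none. The cause of the changes was not tested, apart from what each setting leaves out.

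With spacing up to 50 nt (291 pairs), the lone partner of the SF3A2 K700E table was downstream in 31.6%, the value that crossed 50%. The downstream share was 70.5% both in the Flag K700E table and for the partner in all 4 tables. Both partners were listed in 92.8% in SF3A2 K700E. The SF3A2 wild-type table alone held 2.24%, the K700E share in SF3A2 was 92.7% and 2.69% of tops switched.

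With both partners in at least 2 tables (356 pairs), both were listed in 96.9%, 71.9%, 65.1% and 56.4% of pairs in SF3A2 K700E, SF3A2 wild type, Flag K700E and Flag wild type. The downstream share was 68.9% for the partner in all 4 tables, 64.1% in SF3A2 wild type, 66.1% in Flag K700E and 70.3% in Flag wild type. Second partners specific to K700E and to SF3A2 were in 10.6% and 16.2%. Exchanges were 100% of 2 pairs in SF3A2 and 7.27% in Flag. The share in all 4 tables was 57.2%, that in SF3A2 wild type alone 0% by construction, and the K700E share in SF3A2 91.5%.

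With both partners 30 to 38 nt long (391 pairs), both were listed in 90.8% in SF3A2 K700E and 39.0% in Flag K700E. Wild-type-specific second partners were in 0.339%, Flag exchanges in 0% of 154 pairs, which allows up to 1.95% by a floor of 3 counts, and 45.3% of clusters were in all 4 tables.

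Counting a cluster as listed from 2 branch points on, both partners were listed in 39.9%, 21.2%, 13.7% and 12.3%, in the same order of tables. Second partners specific to K700E, wild type and SF3A2 were in 3.30%, 0.300% and 3.00%. SF3A2 exchanges were 3.54%, the share in all 4 tables was 23.7%, that in SF3A2 wild type alone 2.67%, and the K700E share in Flag 62.4%.

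With direction taken from a 5′ splice site cluster, chosen after seeing the data, 104 pairs remained. The downstream share was 69.2% for the partner in all 4 tables and 69.4% in Flag wild type, and the K700E-specific partner was upstream in 50% of 4 pairs.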

Other observations

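Of the 78 tandem pairs whose partners pointed opposite ways, the downstream ends faced away from each other in 52 and toward each other in 26. The share of pairs pointing the same way was lowest at the ends of the tandem range, with 66.7% of 12 pairs up to 30 nt and 67.9% of 28 pairs at 91 to 100 nt, and it was 93.0% of 172 pairs at 41 to 50 nt. In the 10 nt just beyond the limit it was 68.4% of 19 pairs, and at 151 to 200 nt 94.2% of 1234.

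Groups of 3 or more tandem clusters occurred on chromosomes 1, 6, 10, 17 and 19 and accounted for 14 of the 756 pairs. On chromosome 17 the group had starts at 80210367, 80210423 and 80210489, with all partners pointing the same way. On chromosome 10 the starts were 72509467, 72509531 and 72509576. Of the 6 overlapping pairs, 4 lay on chromosome 19.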
